A study of Homo sapiens with 6 samples.

Results

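Histone chaperones are acidic proteins that keep histones soluble and pass them to, or take them from, nucleosomes during replication, transcription and repair. The ANP32 proteins and SET belong to this group and carry a long tail of aspartate and glutamate residues. eIF4B is an RNA-binding initiation factor that stimulates the helicase eIF4A while the small ribosomal subunit is recruited to an mRNA. The contacts of eIF4B with the mRNAs of 10 genes of this group were examined, namely ANP32A, ANP32B, ANP32E, SET, NASP, NAP1L1, NAP1L4, ASF1B, CHAF1A and SSRP1. They were taken by gene symbol, and they are 10 of the 13668 protein-coding genes with at least 1 count in either cell line.

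The contacts were mapped by eIF4B iCLIP, in which UVC light links the protein to RNA and the end of each cDNA marks the linked nucleotide. DoHH-2, a line derived from a diffuse large B-cell lymphoma (DLBCL), was compared with GM01953, a control B-cell line without the disease. Each condition is thus 1 cell line, the lines are not isogenic, and the labels name no treatment for either. Cells were exposed to 150 mJ/cm2 of UVC and the lysates were digested with RNase I and precipitated with the same anti-eIF4B antibody. The labels list 4 samples of DoHH-2 and 2 of GM01953, but the deposited values are pooled, with 1 table per cell line, so no SD and no test between the lines can be given.

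A count is 1 cDNA after the removal of PCR duplicates, and counts per 1000000 counts of the same line are written as CPM. DoHH-2 held 2033156 counts and GM01953 held 167197, a depth ratio of 12.2. Intervals are 95% intervals for counting error (exact Poisson for a level, exact conditional binomial for a ratio, Wilson for a share), and they leave out the spread between samples and any duplicates that remained. No input RNA is part of these tables, so more mRNA and more eIF4B on each mRNA cannot be told apart in any value below. Of 8 B-cell markers, 7 had counts in DoHH-2 and 8 in GM01953. Their summed level was 909 CPM in DoHH-2 and 4031 in GM01953, and CD22, a B-cell surface lectin, was at 0 in DoHH-2. Most of this gap lay in CD74, with 503 and 2147 CPM, and MS4A1, with 6.39 and 909. PAX5 was closer, with 272 and 347, and CD79B alone stood higher in DoHH-2, with 48.7 and 41.9. The 3 T-cell and 3 myeloid markers were at 0 in both lines, and of the 2 epithelial markers EPCAM alone had counts, 2 in DoHH-2.

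All 10 genes carried eIF4B counts in both lines. Levels and ratios are over the whole gene, introns included. Introns held 558 of these counts in DoHH-2 against 36, and exons of transcripts other than the main one held 380 against 26. Together the 10 genes held 8757 counts in DoHH-2, which was 0.431% of all counts (0.422–0.44), and 766, or 0.458% (0.427–0.492), in GM01953. The ratio of DoHH-2 to GM01953 was 0.94 (0.873–1.01). SET held the most counts in GM01953, and without it the ratio was 1.09 (1–1.19). The median ratio of the 10 genes was 0.917, and that of the 3491 coding genes with a mean level of at least 60 CPM was 1.01, with quartiles of 0.622 and 1.6. The small summed difference hid opposite differences of single genes. The interval of the ratio lay wholly above 1 for 4 of the 10 genes, where 24% of the coding genes did so, and wholly below 1 for 5, where 24.5% did so. A ratio above 2 was found for 1 gene, CHAF1A, against 16.5% of coding genes, and a ratio below 0.5 for 1 gene, ASF1B, against 17.9%.

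The members of the acidic SET and ANP32 group did not share a direction. SET (chr9:128689222-128696396 on the plus strand of GRCh38), which inhibits protein phosphatase PP2A and masks histones from acetyltransferases, had 1487 counts in DoHH-2 and 219 in GM01953. Its level was 731 CPM (695–770) in DoHH-2 and 1310 (1142–1495) in GM01953, which gave a ratio of 0.558 (0.484–0.646). ANP32A (chr15:68778535-68820895, minus strand), its partner in the histone-masking complex, had 790 counts in DoHH-2, against 104. This corresponds to 389 CPM (362–417) in DoHH-2 and 622 (508–754) in GM01953, with a ratio of 0.625 (0.509–0.774). Both levels were lower in DoHH-2, and their intervals did not overlap between the lines. When each position was counted once, whatever its count, the ANP32A ratio was 0.871 (0.611–1.28).

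ANP32B (chr9:97983341-98015943, plus strand), a close paralogue of ANP32A, stood in the same direction with 632 counts in DoHH-2 and 78 in GM01953. Its levels of 311 (287–336) and 467 (369–582) CPM gave a ratio of 0.666 (0.526–0.854). With each position counted once the ANP32B ratio was 0.706 (0.493–1.04). After DoHH-2 was thinned to the depth of GM01953, in a single random draw, the ANP32B ratio was 0.705 (0.49–1.01). ANP32E (chr1:150218417-150236112, minus strand), the family member that removes the variant histone H2A.Z from chromatin, stood in the other direction. It had 1687 counts in DoHH-2 and 72 in GM01953, or 830 (791–870) and 431 (337–542) CPM, a ratio of 1.93 (1.52–2.47). ANP32E thus stood in the direction opposite to that of its 2 paralogues.

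**Figure D1:**
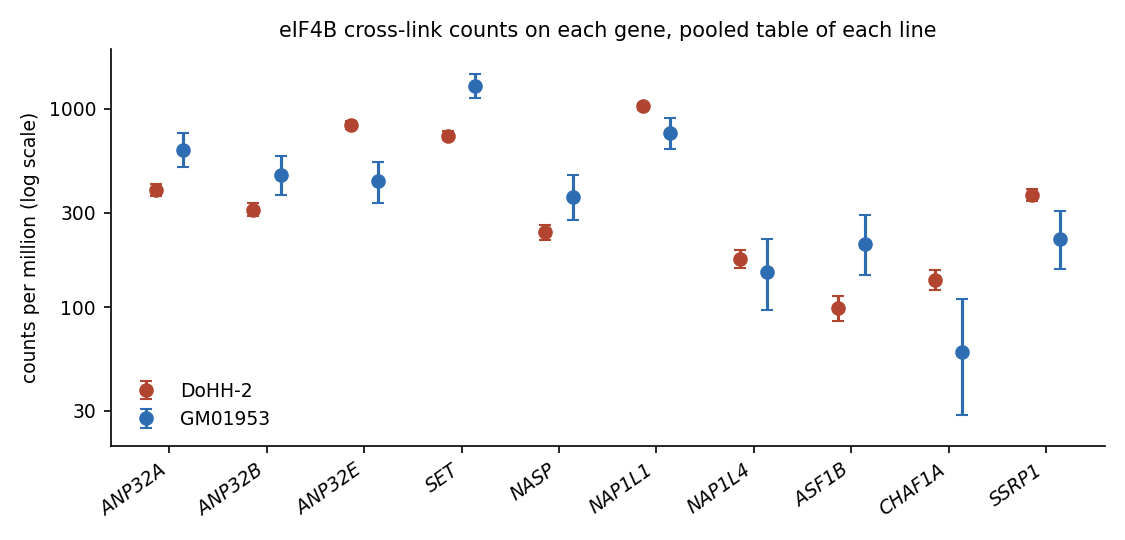
Level of eIF4B counts on each of the 10 genes in the pooled table of each cell line, in CPM on a log scale; points are the levels and bars are exact Poisson 95% intervals. ANP32E, NAP1L1, CHAF1A and SSRP1 stand higher in DoHH-2 (red), and ANP32A, ANP32B, SET, NASP and ASF1B higher in GM01953 (blue).

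The chaperones of H2A and H2B, namely NAP1L1, NAP1L4 and the FACT subunit SSRP1, had ratios above 1, and that of NAP1L4 was within counting error of 1. NAP1L1 (chr12:76036585-76084685, minus strand), a nucleosome assembly protein, had the most counts of the 10 genes in DoHH-2, with 2092, and 126 in GM01953. It stood at 1029 (985–1074) and 754 (628–897) CPM, a ratio of 1.37 (1.14–1.65). With each position counted once this ratio turned to 0.807 (0.638–1.03). Its paralogue NAP1L4 (chr11:2944437-2992329, minus strand) had 355 counts in DoHH-2 against 25, or 175 (157–194) and 150 (96.8–221) CPM, and its ratio of 1.17 (0.778–1.83) could not be told from 1 at this depth. SSRP1 (chr11:57325988-57335892, minus strand), which forms the FACT complex with SUPT16H, had 748 and 37 counts, levels of 368 (342–395) and 221 (156–305) CPM, and a ratio of 1.66 (1.2–2.38).

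The chaperones of H3 and H4 were divided. NASP (chr1:45584041-45618893, plus strand), which keeps the soluble pool of H3 and H4 from being degraded, had 486 counts in DoHH-2 against 60, or 239 (218–261) and 359 (274–462) CPM, a ratio of 0.666 (0.509–0.886). Of its counts 71 of 486 lay in introns in DoHH-2 and 17 of 60 in GM01953. With counts on the exons of its main transcript alone the NASP ratio was 0.853 (0.608–1.23). ASF1B (chr19:14119512-14136589, minus strand) passes H3 and H4 dimers to the assembly factor CAF-1. It had 201 counts in DoHH-2 and 35 in GM01953, levels of 98.9 (85.7–114) and 209 (146–291) CPM, and a ratio of 0.472 (0.329–0.697). Of those 35 counts 21 lay at a single position, and with each position counted once the ASF1B ratio was 1.13 (0.581–2.52). CHAF1A (chr19:4402640-4443397, plus strand), the large subunit of CAF-1, had 279 counts in DoHH-2 against 10, or 137 (122–154) and 59.8 (28.7–110) CPM, a ratio of 2.29 (1.23–4.84). Its level in GM01953 was below the limit of 60 CPM, so that it met the limit on the mean through DoHH-2 alone. In introns lay 82 of the 279 counts in DoHH-2 and 1 of the 10 in GM01953. On exons alone the CHAF1A ratio was 1.75 (0.9–3.88), and at positions with a false discovery rate (FDR) below 0.05 it was 1.41 (0.622–3.97). After thinning it was 1.5 (0.63–3.73), a value that also carries the sampling error of that single draw.

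Per length of mRNA the order of the genes differed between the lines. In DoHH-2, ANP32E with 235 CPM per kb of mRNA (224–247) and SET with 232 (219–244) stood first and did not differ beyond counting error. ANP32B followed with 184 (169–200), then ANP32A with 139 (129–150) and SSRP1 with 124 (115–134), whose intervals overlapped each other. NAP1L1 stood at 68.2 (65.1–71.4), NASP at 58.6, NAP1L4 at 53.9 and ASF1B at 53, and the last 3 did not differ beyond counting error. CHAF1A was lowest with 27.9 (24.1–32.2). In GM01953, SET stood first with 437 CPM per kb (381–500), ahead of ANP32B with 311 (245–388), ANP32A with 228 (184–279), ANP32E with 126 (98.9–159) and ASF1B with 117 (80.4–164). Of these neighbours ANP32A and ANP32E did not overlap, and the others did. SSRP1 stood at 78.2, NASP at 68.6, NAP1L4 at 51 and NAP1L1 at 50.5, all 4 with overlapping intervals, and CHAF1A was again lowest with 16 (7.31–30.4). The highest ANP32 density was thus that of ANP32E in DoHH-2 and that of ANP32B in GM01953. The density of NAP1L1 is over an annotated 3′ UTR of 11844 nt, of which in DoHH-2 the first 2000 nt held 957 counts, the next 2000 nt held 35 and the remainder held 4.

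A gene was called bound when positions with an FDR below 0.05 held more than 20 counts, the FDR being the authors' value for the enrichment of a position over counts shuffled within the gene. All 10 genes were bound in DoHH-2, where 33.3% of coding genes with a count were bound. In GM01953, 8 of the 10 were bound, where 8.34% of coding genes were. The exceptions were NAP1L4, with 19 counts at such positions, and CHAF1A, with 6. A limit on counts is passed more readily in the deeper table and by genes with a higher level. All 10 genes had a mean level of at least 60 CPM, while the coding genes in these shares include any with a count. The shares are therefore not matched for level. More than 50 counts were reached by 10 of the 10 genes in DoHH-2 and by 5 in GM01953.

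The counts of the 10 genes were then placed along the MANE Select transcript of each gene in GENCODE release 44. The mRNA was divided into 5′ UTR, start codon with 50 nt to each side, CDS, stop codon with 50 nt to each side and 3′ UTR. In DoHH-2 the 3′ UTRs held 54.5% (53.4–55.6) of the 7819 exonic counts and 57.2% of the length, and the CDS held 27.9% (26.9–28.9) of the counts and 33.5% of the length. In GM01953 the 3′ UTRs held 35.1% of the 704 exonic counts and the CDS 26.1% (23–29.5). Over all coding genes other than histone genes the CDS share was 44.2% for DoHH-2 and 45.1% for GM01953, and the 3′ UTR share was 33% and 23.1%. Those genes also differ in layout, with the CDS at 44% and 43.4% of the length and the 3′ UTR at 47.5% and 48.2%.

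The 5′ UTRs held more counts than their length. They are 3.84% of the length of the 10 mRNAs and held 10.1% (9.44–10.8) of the DoHH-2 counts and 18.6% of the GM01953 counts. Without SET the 5′ UTRs held 10.4% (9.7–11.2) in DoHH-2 and 13.1% (10.4–16.3) in GM01953. An excess over length was general, since over all coding genes other than histone genes they held 8.33% in DoHH-2 and 13.6% in GM01953. Their length share there was 3.8% and 3.67%. The window around the start codon is 2.7% of the length and held 4.63% (4.19–5.12) in DoHH-2 and 9.8% (7.82–12.2) in GM01953. That last share came from SET. Without SET it was 3.94% (3.49–4.45) in DoHH-2 and 1.22% (0.562–2.65) in GM01953, so that the order of the lines turned. The DoHH-2 share without SET leaned on NASP, which held 116 of its 254 counts. In GM01953 7 of the 10 genes had no count in this window, for example 0 of 111 exonic counts of NAP1L1, which allows a share of up to 2.7% when a 0 is read as at most 3 counts. Likewise the window around the stop codon held 2.86% of the DoHH-2 counts and 10.4% of the GM01953 counts, and without ANP32A the shares were 2.41% (2.08–2.8) and 2.62% (1.62–4.21).

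A difference between the lines was judged for the 8 genes with at least 30 exonic counts in both lines, which leaves out NAP1L4 and CHAF1A, and 570 coding genes met the same rule. The 5′ UTR share of SET was 8.56% (7.2–10.2) in DoHH-2 and 31.3% (25.5–37.8) in GM01953, that of ASF1B was 16.5% (11.8–22.6) and 69.7% (52.7–82.6), and that of NAP1L1 was 4.82% (3.93–5.91) and 10.8% (6.29–18). These 3 of 8 intervals were higher in GM01953, as were 20.4% of those of the 570 genes, and 0 of 8 were higher in DoHH-2 (2.28%). Around the start codon 1 of 8 genes, SET, was higher in GM01953 (17.2% of the 570) and 0 in DoHH-2 (3.68%), and around the stop codon 1 of 8, ANP32A, was higher in GM01953 (10%) and 0 in DoHH-2 (2.81%). The leading SET site in GM01953 was centred 50 nt before the start codon, on the border of the start codon window. The 5′ UTR and start codon calls of SET thus share this site. In the CDS, SET was higher in DoHH-2, at 7.62% (6.33–9.14) against 1.87% (0.729–4.71), where 13.2% of the 570 genes were. NASP was higher in GM01953, at 62.2% (46.1–75.9) against 33.1% (28.6–37.9), where 16.1% were. Of the 23 NASP counts in the CDS in GM01953, 9 lay at a single position. In the 3′ UTR 3 of 8 genes stood higher in DoHH-2 (32.6% of the 570), namely SET with 72.3% (69.9–74.6) against 34.1% (28.1–40.7), ANP32A with 56.2% (52.5–59.9) against 15.1% (9.18–23.7) and ASF1B with 46.7% (39.6–53.9) against 6.06% (1.68–19.6), and 0 of 8 stood higher in GM01953 (4.04%). The 3 genes with the lower 3′ UTR share in GM01953 each had a concentrated site elsewhere on the mRNA, and since shares sum to 100% these calls are not independent of each other.

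The leading sites of 5 of these genes are shown as sequence, both those whose intervals did not overlap between the lines and, for comparison, those in the 3′ UTR of SET and NAP1L1 whose intervals overlapped. For each gene the 21 nt with the most counts were found in each line, so the share in the line of choice is high by construction. A gap between the lines at such a window is therefore in part by construction too. How often coding genes show such a gap was not computed. The 25 nt around the highest position are printed from GRCh38, read 5′ to 3′ on the strand of the mRNA, with T for U and the linked nucleotide in capitals.
SET 3′ UTR, highest in DoHH-2 (chr9:128694741-128694765): ttttttttttttTtttttccctctt
SET 5′ UTR, highest in GM01953 (chr9:128689519-128689543): cccgcccccttcGccttcccttctc
ANP32A after the stop codon, highest in GM01953 (chr15:68780024-68780048): tgatttgactgtTtttacccatatc
ANP32A distal 3′ UTR, highest in DoHH-2 (chr15:68778933-68778957): agttttatgtctGtttgtcattgat
ANP32B 3′ UTR, highest in GM01953 (chr9:98015752-98015776): gtaacagcatttTtactttctgtac
NAP1L1 3′ UTR, highest in DoHH-2 (chr12:76047631-76047655): tatttgttgtttGtttgcttgtttt
ASF1B 5′ UTR, highest in GM01953 (chr19:14136558-14136582): agttctcggagaGaagaggcgggag

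The SET mRNA had a different leading site in each line. In DoHH-2 it was the T run in its 3′ UTR, where the 21 nt centred 86 nt after the first base of the stop codon held 403 of 1378 exonic counts, or 29.2% (26.9–31.7). In GM01953 the same 21 nt held 51 of 214, or 23.8% (18.6–30). The leading window of GM01953 was the pyrimidine-rich stretch centred 50 nt before the start codon, which held 77 of 214 counts, or 36% (29.9–42.6), at 12 positions. In DoHH-2 that window held 45 of 1378, or 3.27% (2.45–4.34). The single highest position in GM01953, 52 nt before the start codon, had 16 counts there and 1 in DoHH-2. The intervals of the T run, chosen in DoHH-2, overlapped between the lines. Those of the site before the start codon, chosen in GM01953, did not, a gap that is in part by construction.

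ANP32A also had a different leading site in each line. The 21 nt centred 42 nt after the first base of the stop codon held 58 of its 93 exonic counts in GM01953, or 62.4% (52.2–71.5), and 35 of 692 in DoHH-2, or 5.06% (3.66–6.95). The counts in GM01953 were spread over 9 positions, the highest with 25. In DoHH-2 the leading window lay in the distal 3′ UTR, 1135 nt after the stop codon, with 114 of 692 counts, or 16.5% (13.9–19.4), and 1 of 93 in GM01953. Its paralogue ANP32B had the same leading site in both lines. The window centred 332 nt after the stop codon held 65 of 554 counts in DoHH-2, or 11.7% (9.31–14.7), and 25 of 77 in GM01953, or 32.5% (23.1–43.5), a share whose interval was higher in GM01953. ANP32E was the most dispersed of the family. Its leading window in DoHH-2, 161 nt before the start codon, held 4.6% (3.69–5.73) of 1629 counts and 4 of 72 in GM01953, and in GM01953 a single position 1277 nt after the stop codon held 10 of 72 counts and 2 in DoHH-2.

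NAP1L1 had its leading site in the 3′ UTR in both lines. The window 794 nt after the stop codon, rich in T and G, held 290 of 1824 counts in DoHH-2, or 15.9% (14.3–17.6), and 22 of 111 in GM01953, or 19.8% (13.5–28.2). ASF1B, in contrast, had 21 of its 33 exonic counts in GM01953 at 1 position, 114 nt before the start codon, or 63.6% (46.6–77.8). In DoHH-2 the same position held 6 of 182 counts, or 3.3%. It was among the 3 highest positions of ASF1B in DoHH-2 too, where the highest, in the 3′ UTR 162 nt after the stop codon, had 11 counts. The position is a G within purines, unlike the T-rich 3′ UTR sites of SET, ANP32B and NAP1L1.

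**Figure D2:**
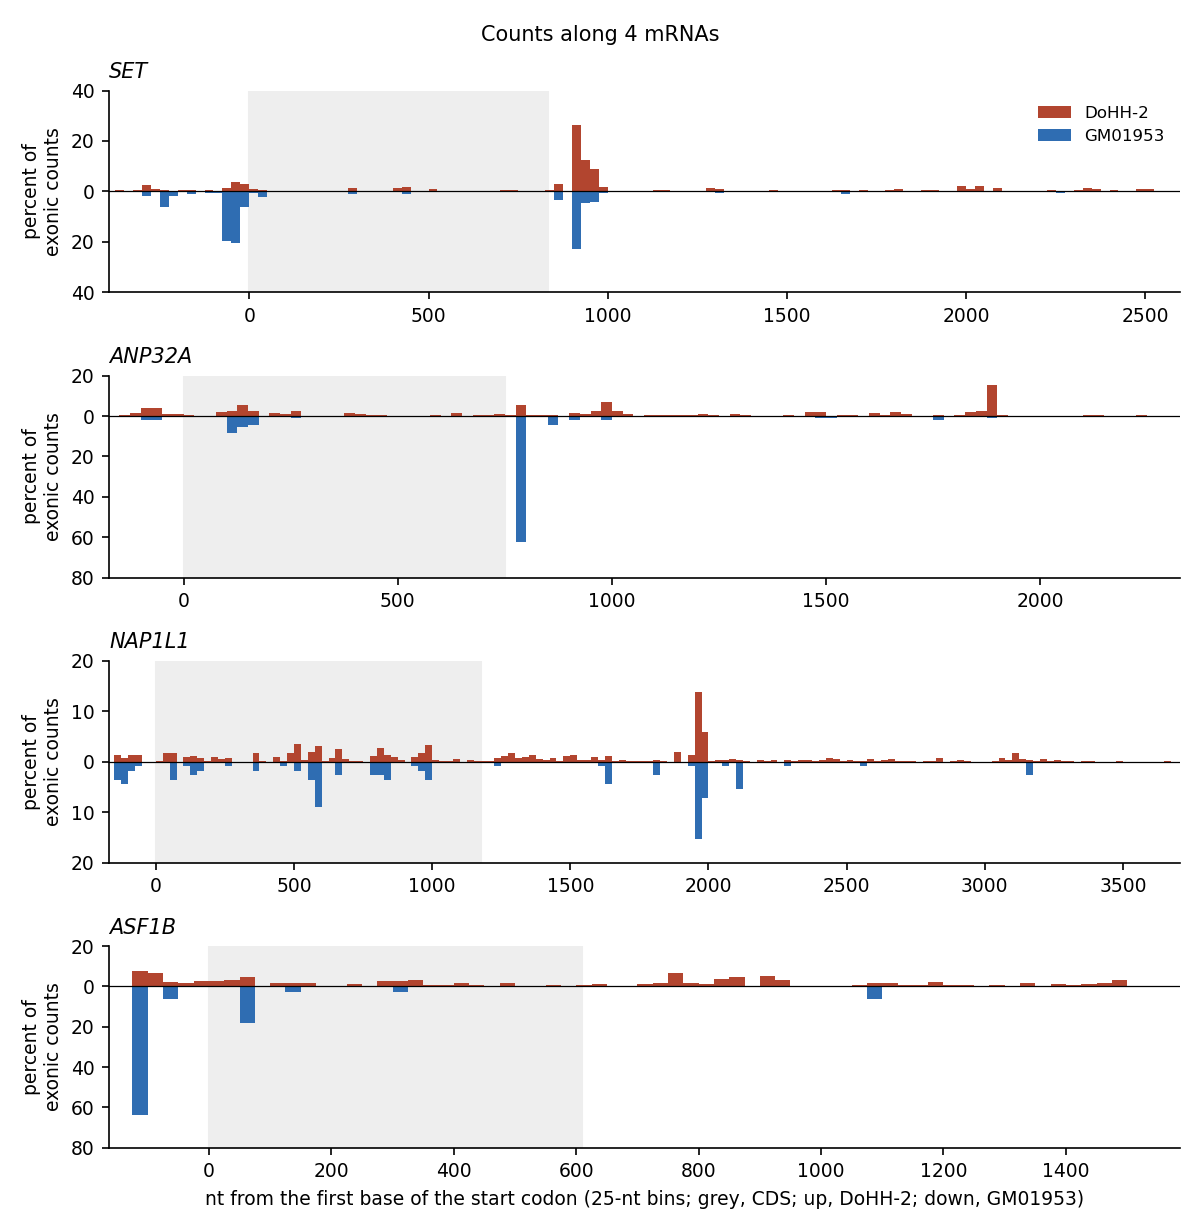
Counts along 4 mRNAs in bins of 25 nt, as the percent of the exonic counts of the gene in each line, with DoHH-2 upwards and GM01953 downwards; the x axis is the distance in nt from the first base of the start codon, grey marks the CDS, and the NAP1L1 plot ends 2500 nt after its CDS. SET and NAP1L1 share a 3′ UTR peak between the lines, while GM01953 has peaks before the start codon of SET, after the stop codon of ANP32A and in the 5′ UTR of ASF1B.

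NASP had counts gathered at the 5′ end in DoHH-2. In DoHH-2 its 5′ UTR held 29.4% (25.1–34.2) and the window around its start codon 30.2% (25.8–35) of 384 exonic counts, while these regions are 1.74% and 3.1% of its length. In GM01953 these regions held 18.9% (9.48–34.2) and 13.5% (5.91–28) of 37 counts, and both intervals overlapped those of DoHH-2. The 21 nt centred 81 nt before the start codon held 71 counts in DoHH-2, or 18.5% (14.9–22.7), and 7 of 37 in GM01953, or 18.9% (9.48–34.2). Its highest position in GM01953 lay in the CDS, 1711 nt after the start codon, with 9 counts there and 1 in DoHH-2. The 3 highest positions in DoHH-2 had 15, 11 and 10 counts and lay 49, 73 and 31 nt before the start codon, and all 3 were at 0 in GM01953, a level that its 37 exonic NASP counts cannot tell from the shares in DoHH-2.

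CHAF1A and SSRP1 had most of their counts in the CDS. The CDS of CHAF1A held 73.3% (66.6–79.1) of its 191 exonic counts in DoHH-2 and 8 of 9 in GM01953, and it is 82.2% of the mRNA. Its highest position in DoHH-2 was a T in the 3′ UTR, 166 nt after the stop codon, with 17 counts, and its next highest, with 4 counts, was the G just before the start codon. No position of CHAF1A had counts in both lines. The CDS of SSRP1 held 56.9% (53.3–60.5) of 715 counts in DoHH-2 and 67.6% (51.5–80.4) of 37 in GM01953, and it is 71.6% of the mRNA. The 3′ UTR of SSRP1 is 13.1% of the length and held 27.7% (24.5–31.1) and 24.3% (13.4–40.1) of the counts. Its highest position in DoHH-2, a T 68 nt after the stop codon, had 21 counts, and 5 in GM01953. NAP1L4 had its counts in the 3′ UTR, at 54.1% (48.1–59.9), and in the CDS, at 39.3% (33.6–45.2), of 270 counts in DoHH-2, and in GM01953 16 of 21 lay in the CDS. Its highest position in GM01953, with 4 counts, lay in the CDS 840 nt after the start codon and had 6 counts in DoHH-2.

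Several of these mRNAs have close copies in the genome. Words of 31 nt that also occur elsewhere made up 60.2% of the SET mRNA, 26.6% of ANP32B, 21.9% of ANP32A, 20.8% of NASP, 14% of NAP1L1 and 9.95% of NAP1L4, and at most 1.58% of the other 4 mRNAs. In the CDS such words made up 84.4% of SET, 46.1% of NAP1L1, 41.7% of ANP32A and 34% of ANP32B, and their effect on the CDS shares above was not tested gene by gene. Such words held 19.3% of the exonic SET counts in DoHH-2 and 7.01% in GM01953. With unique words alone the SET ratio was 0.483 (0.416–0.563), and each printed site lies in a word that occurs once.

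The overlap of positions between the lines was uneven among the genes. Of the 330 positions with a count on the 10 genes in GM01953, 209 had a count in DoHH-2, which is 63.3% of the GM01953 positions and 4.63% of the 4516 DoHH-2 positions. The share of the GM01953 positions was highest for NAP1L1 (73.7%) and SET (73.2%) and was 39.3% for NASP and 0 of 7 positions for CHAF1A. Over the 13668 coding genes the share was 33.1% of the GM01953 positions, and over the 3491 with a mean level of at least 60 CPM it was 40.5%. The part of depth and gene level in these shares was not tested. Those 209 positions held 70.4% of the counts of the 10 genes in GM01953 and 15% in DoHH-2.

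The linked nucleotide, read with the listed positions as 0-based, was most often T. T made up 53.1% (52–54.2) of the exonic counts in DoHH-2 and 49.3% (45.6–53) in GM01953, where 27.5% of the nucleotides of the 10 mRNAs are T. A made up 10% and 8.81% of the counts and 28.4% of the nucleotides. Among the genes the T share in DoHH-2 was highest for ANP32E, at 61.6% (59.2–63.9), and lowest for ASF1B, at 25.3% (19.5–32.1), where T is 23.3% of the mRNA. The base with the most ASF1B counts in DoHH-2 was C, with 38.5%, where C is 30.7% of the mRNA. In GM01953 it was G, with 63.6%, where G is 25.6% of the mRNA, and these G counts are those of the single position in its 5′ UTR. UV light is known to link pyrimidines, and T above all, more readily than purines, and its part in these shares was not tested.

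The acidic tails of these proteins are written in the mRNA as runs of codons for aspartate and glutamate. A stretch was defined as merged windows of 20 codons with at least 14 such codons, and 6 of the 10 genes have it. ANP32A has it at codons 159 to 228, ANP32B at 157 to 240, ANP32E in 2 stretches between 149 and 250, SET at 221 to 277, NAP1L1 at 344 to 378 and NAP1L4 at 341 to 372. NASP, ASF1B, CHAF1A and SSRP1 have none, with at most 12, 7, 13 and 11 acidic codons in any 20. For 5 of the 6 genes the 10 codons with the most acidic codons are shown, with codons for aspartate or glutamate in capitals, to show the sequence that the counts below refer to. They hold 1 to 8 T in 30 nt, with 1 in NAP1L4 and 8, or 26.7%, in NAP1L1.
ANP32A codons 168 to 177: GATGATGAGGAGGAGGATGAGGATGAGGAG
ANP32B codons 175 to 184 (chr9:98011276-98011305): GAAGATGAGGAAGACGAGGACGATGAGGAT
SET codons 233 to 242 (chr9:128693929-128693958): GAAGAAGATGATGATGATGATGAAGAGGAG
NAP1L1 codons 348 to 357: GAAGATGATGATGATGATtatGATGAAGAA
NAP1L4 codons 347 to 356: GAAGAAggtGAAGAAggaGAAGAGGAGGAA

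The counts in these runs were 6 or fewer. In DoHH-2 the ANP32B run had 1 count, the NAP1L1 run had 1, the SET run had 6, and those of ANP32A and NAP1L4 had 0. The 6 counts of the SET run are 200 counts per kb, above the 167 of its CDS outside the stretch. In GM01953 all 5 runs were at 0. Over the whole stretches of the 6 genes DoHH-2 had 86 counts in 1119 nt, or 76.9 counts per kb. The other CDS nucleotides of the same genes had 1512 counts in 4314 nt, or 350 counts per kb, so the density in the stretches was 0.219 (0.174–0.273) of that elsewhere in the CDS. GM01953 had 0 counts in the stretches and 129 in the other CDS, which allows a ratio of up to 0.112.

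All 6 genes had the lower density in the stretch in DoHH-2. The ratio was 0.152 (0.0815–0.262) for ANP32B, 0.153 (0.0763–0.276) for NAP1L1, 0.185 (0.0221–0.683) for NAP1L4, 0.221 (0.141–0.333) for ANP32E, 0.272 (0.154–0.449) for ANP32A and 0.561 (0.31–0.953) for SET. In NAP1L1 this was 11 counts in 105 nt against 729 in 1068 nt, and in SET 16 counts in 171 nt against 110 in 660 nt. The counts were thin throughout, since the highest position in any stretch had 5 counts.

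Base composition moved with this difference. T made up 14.6% of the nucleotides in the stretches and 23.7% elsewhere in the CDS. With the comparison limited to T, DoHH-2 had 17 counts at 163 T in the stretches and 619 at 1023 T elsewhere, a ratio of 0.172 (0.0998–0.278). With the comparison limited to the second part of each CDS, past its middle, the ratio was 0.22 (0.173–0.276). Sequence that also occurs elsewhere in the genome, judged by words of 31 nt, made up 28.8% of the stretches and 38.8% of the other CDS, and with unique words alone the ratio was 0.197 (0.154–0.25). When 12 acidic codons in 20 were enough, the ratio was 0.661 (0.568–0.766). That limit brings in more sequence and also NASP and CHAF1A, so the genes compared were not the same. The whole CDS of NASP had 65.1 counts per kb in DoHH-2 and that of CHAF1A 49.2.

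A low density in acidic stretches was not particular to these genes. Among the other coding genes, 429 have such a stretch, and their pooled ratio was 0.738 (0.695–0.784) in DoHH-2 and 0.822 (0.649–1.03) in GM01953. In the 155 of them with at least 50 CDS counts in DoHH-2 the median ratio was 0.479, with quartiles of 0.205 and 0.88, and the ratio was below 1 in 78.7% of them.

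Other genes of the same function were taken as a list of 25 histone chaperones and their partners, and 25 had counts in DoHH-2 and 24 in GM01953, with TONSL at 0. Of the 15 with a mean level of at least 60 CPM, 6 had a ratio above 2, where 16.5% of coding genes did, 0 had a ratio below 0.5, where 17.9% did, and 9 lay between. The 6 were NCL, SUPT16H, RBBP4, RBBP7, HIRA and HJURP. HIRA and HJURP, with DAXX, met the limit through DoHH-2 alone, the line where they stood higher, so the limit favours their ratios above 2. Among the 12 with at least 60 CPM in both lines 4 had a ratio above 2. The share of all coding genes under that stricter limit is not given here, so whether 4 of 12 is unusual cannot be said. NCL, or nucleolin, had the most counts, 2597 in DoHH-2 against 103, a ratio of 2.07 (1.7–2.55). SUPT16H, the FACT partner of SSRP1, had 1870 and 74 counts, a ratio of 2.08 (1.65–2.66), beside the 1.66 (1.2–2.38) of SSRP1. RBBP4, a histone-binding subunit of CAF-1, had 309 and 12 counts, a ratio of 2.12 (1.19–4.14), beside the 2.29 (1.23–4.84) of CHAF1A. Its paralogue RBBP7 also had a ratio of 2.12 (1.25–3.92). HIRA, which deposits H3.3, had 232 and 5 counts, a ratio of 3.82 (1.61–11.9), and HJURP, which deposits the centromeric CENP-A, had 248 and 9, a ratio of 2.27 (1.17–5.01). PTMA, a small acidic protein that binds histone H1 and is the third of the list by counts, had 1434 and 102 counts, a ratio of 1.16 (0.945–1.43). By the bound rule DoHH-2 had 21 bound genes of the 25, where 33.3% of coding genes were bound, and GM01953 had 6, where 8.34% were.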

How the data were processed

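eIF4B iCLIP was measured in DoHH-2 and GM01953. The authors removed PCR duplicates with BBMap, demultiplexed with Je, aligned with HISAT2 to GRCh38, merged replicates and ran iCount, and they deposited for every cross-link position a cDNA count and an FDR, a q-value from permuting counts within the gene. Versions and the annotation release are not given in the sources used here. Positions were read as 0-based and shifted by 1. No source used here states this. It was inferred from the base at the linked position, since after the shift A made up 11.6% of DoHH-2 counts on the plus strand and 11.2% on the minus strand, and 20.3% and 28.4% without it. The bases at linked positions depend on this reading.

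Rows whose name equals 1 of the 10 symbols were taken, and repeated rows of a position were dropped. The genes, lists and alternatives were chosen with earlier results of these data known. Counts were scaled by the total of each line and placed on MANE Select transcripts of GENCODE release 44. All 10 genes are described, and of 25 other chaperones the 3 with the most counts in DoHH-2 and those past 2-fold. Ratios below 0.5 or above 2 were called past 2-fold, among coding genes with a mean of at least 60 CPM. scipy 1.17.1 gave the intervals, edgeR 4.0.16 and DESeq2 1.42.0 gave scaling factors only, and no test was run. Steps were tested on simulated data. Other scalings, filters, windows and thinned counts were tried. The thinning was a single random draw, so the ratios after thinning also carry the sampling error of that draw. The codon run of 1 gene is not reported here.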

Additional observations from a re-analysis of the deposited data

Results flagged for a closer look

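Counts also lay outside the mRNAs described above. The annotated pseudogenes of the 10 genes number 30, and 19 of them held 178 counts in DoHH-2 and 7 held 17 in GM01953, both above the 3 counts that a level of 0 allows. SET has 19 of them, with 57 counts in DoHH-2 and 2 in GM01953. SETSIP, a copy of SET that is annotated as protein-coding, had 21 counts in DoHH-2 and 1 in GM01953. An exon of other SET transcripts upstream of the MANE Select start (chr9:128683655-128684011) held 76 counts in DoHH-2 and 5 in GM01953. In NAP1L1 the part of exons of other transcripts that runs on past a MANE Select exon held 165 counts in DoHH-2 and 11 in GM01953.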

How the results depend on the processing

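No paired analysis was possible because the columns carry no replicate, and no replicate could be left out. The number of genes past 2-fold, 2 with the settings of the report, was 8 with a limit of 1.5-fold, 1 (ASF1B) on MANE Select exons alone and 3 (SET, ASF1B and CHAF1A) on unique words of 31 nt. It was also 2 for positions with an FDR below 0.05 (ANP32E and ASF1B), with each position counted once (SET and CHAF1A) and after thinning (ANP32E and SET), so the genes were not the same. The quartiles of the 3491 coding genes, 0.622 and 1.6, themselves lie past 1.5-fold, so many of those genes pass that limit too. The share of coding genes called was not computed for these settings, so whether these numbers are unusual cannot be said. Without a filter on low counts 16.8% of 13668 coding genes had a ratio above 2 and 38.9% a ratio below 0.5. A count of 0 was replaced by 3 counts for these shares. A gene with 0 in GM01953 and few counts in DoHH-2 is therefore scored as below 0.5, so the 38.9% does not measure genes lower in DoHH-2. The summed ratio was 1.02 (0.94–1.11) for positions with an FDR below 0.05 and 1.09 without SET, the latter chosen after seeing the data. Its interval lay wholly below 1 on MANE Select exons, at 0.913 (0.845–0.988), and for unique words, at 0.907 (0.84–0.98). The same held when scaled by coding genes without histones, at 0.918 (0.852–0.989), and by DESeq2 size factors, at 0.915 (0.849–0.986). It spanned 1 with each position counted once (0.911), with edgeR TMM (0.935) and after thinning (0.956). Of 72 ratios of the 9 genes whose interval did not span 1, under 8 alternatives, 61 kept their direction and side of 1, 9 came to span 1 and 2 turned, both with each position counted once, NAP1L1 at 0.807 and ASF1B at 1.13. NAP1L4, whose interval spanned 1, did so under all 8 and turned under 1 of them, to 0.942 (0.585–1.6) for positions with an FDR below 0.05. The other scalings (coding genes without histones, DESeq2 size factors, edgeR TMM) turned none.

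The CDS share in DoHH-2 was 24.9% for positions with an FDR below 0.05, 33.4% with each position counted once, 26.8% for unique words, 24.8% without NAP1L1 and 32.2% without SET. In GM01953 it was 32.9% with each position counted once and 36.7% without SET. The share around the start codon was 5.44% without NAP1L1, 3.94% without SET and 2.07% with windows of 25 nt in DoHH-2, and 1.22% without SET and 2.27% with windows of 25 nt in GM01953. More than 50 counts left 5 bound genes in GM01953. The ratio in acidic stretches stayed below 1 under every alternative run in both lines, between 0.1 and 0.661 in DoHH-2 and between 0 and 0.218 in GM01953. Limiting it to T or to the second part of the CDS was chosen after seeing the data. The causes of these shifts were not tested. Depth limits GM01953, where CHAF1A had 10 counts and NAP1L4 25.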
